A study of Mus musculus with 6 samples.

Results

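The genes described here encode the vacuolar-type proton pump (V-ATPase), which acidifies endosomes and lysosomes, and proteins that form the lysosomal membrane, fill its lumen or switch on its genes. They were chosen by name and known function from a set of 35 symbols, of which 34 matched a gene in the table of 54446 gene identifiers. The remaining symbol, Limp2, has no row of its own and is a further name of the protein encoded by Scarb2. All 34 passed the filter on low counts and were tested among 19176 genes. Of these, 4 (Atp6ap1, Atp6ap2, Lamp2 and Tfe3) are on chromosome X. RNA of mouse intestine was sequenced from 6 samples, all of wild-type genotype. In the 3 control samples the mice were fed by their dam and met neither hypoxia nor cold. In the 3 samples of the necrotizing enterocolitis model (NEC) pups received 40 µl of 33% Esbilac formula by gavage at intervals of 4 h. At intervals of 12 h they were also placed in 99.9% nitrogen for 100 s and then held at 4 °C for 10 min. All animals of both groups were killed after 96 h. Exact age, sex, strain and intestinal segment were not given in the sources used here. Nothing says that each sample was a separate animal. The p-values therefore reflect only how far these samples vary, and part of that variation may be technical.

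The V-ATPase has a cytosolic V1 sector, which hydrolyses ATP, and a membrane-embedded V0 sector, which carries protons into the lumen as its ring of c subunits turns. The acid it makes activates the lysosomal hydrolases. Basic helix-loop-helix factors of the TFEB family (TFEB, TFE3, MITF and TFEC) bind E-box elements with the core CACGTG in the promoters of many lysosomal and V-ATPase genes, and TFEB is held in the cytoplasm when mTORC1 is active on the lysosomal surface. In suckling rodents, enterocytes take up milk macromolecules by endocytosis and digest them in large lysosomal vacuoles.

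The E-box core that TFEB family factors bind is present in 4 of the members' promoters in the stretches shown here, which were chosen because they hold it upstream of the gene start in 1 to 4 copies. Each line gives the 150 bases before the RefSeq gene start on GRCm38.p6, 5′ to 3′ on the gene's strand, with CACGTG in capitals.
Lamp1 (chr8:13159011-13159160, plus strand): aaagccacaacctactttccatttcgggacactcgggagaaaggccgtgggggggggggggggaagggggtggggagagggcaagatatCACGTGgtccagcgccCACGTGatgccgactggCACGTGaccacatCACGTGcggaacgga
Mcoln1 (chr8:3500369-3500518, plus strand): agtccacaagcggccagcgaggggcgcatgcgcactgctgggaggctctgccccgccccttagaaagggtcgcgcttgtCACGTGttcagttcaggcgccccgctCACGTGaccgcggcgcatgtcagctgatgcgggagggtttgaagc
Atp6v0b (chr4:117887330-117887479, minus strand): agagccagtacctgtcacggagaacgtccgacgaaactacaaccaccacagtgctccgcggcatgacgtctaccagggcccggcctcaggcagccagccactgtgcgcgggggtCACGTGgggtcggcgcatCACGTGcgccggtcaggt
Atp6v1a (chr16:44139260-44139409, minus strand): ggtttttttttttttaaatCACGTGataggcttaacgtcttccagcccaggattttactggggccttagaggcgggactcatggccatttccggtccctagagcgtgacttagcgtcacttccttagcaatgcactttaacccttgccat
CACGTG reads the same on both strands. It was searched in the RefSeq windows from 250 bases before to 50 bases after each gene start, which were at hand for 27 of the 34 members. It occurred in 6 of these 27 genes (22.2%), the 4 shown plus Atp6v0d1 and Atp6v0e, against 8.09% of 27025 genes in all. The longer TCACGTG, which contains CACGTG and was searched on both strands, occurred in the same 6 members and in 4.29% of all genes. In Lamp1, which encodes the most abundant glycoprotein of the lysosomal membrane, the window held 4 copies, as in 6 of the 27025 genes (0.0222%). A match describes the letters and not a bound site. Of the 6 genes with a match, 5 had a negative log2 fold change in NEC and none passed the test. Negative values were held by 22 of the 34 members and by 9222 of the 19176 genes tested. Among the 5, Atp6v0b, Atp6v1a and Atp6v0e changed sign in fits with 1 library left out.

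The 6 libraries held 69441184 to 106304239 counts, so the least abundant member, Mitf, still had 28 counts in its lowest library. Levels are given in CPM, counts scaled to a common library size with TMM factors (trimmed mean of M values). A log2 fold change or log2 difference is positive where NEC was higher. In every library the epithelial genes Epcam (1833 to 2953 CPM), Vil1 (585 to 1012 CPM) and Cdx2 (132 to 245 CPM) were present. Control replicate 1 held RNA both of Xist (179 CPM) and of the Y-linked gene Ddx3y (19.8 CPM). Xist stood at 344 CPM in control replicate 2 and at 1.17 CPM or less in the other 4 libraries. Ddx3y stood at 1.29 CPM in control replicate 2, at 30.9 CPM in control replicate 3 and at 25.6 to 44.8 CPM in the NEC libraries. High Xist thus occurred in 2 control libraries and in no NEC library, and its part in the results, those of the 4 X-linked members included, was not tested. The first 8 characters of the sample codes in the labels form 2 groups: AG181028 marks control replicate 3 and NEC replicate 1, and AG181017 the other 4. What the code stands for is not given. Without control replicate 1, the log2 fold changes of the 2 members singled out below were 0.96 for Atp6v0c and 0.79 for Npc2.

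Between control and NEC intestine, none of the 34 members passed the edgeR quasi-likelihood test at an adjusted p below 0.05, where 0.704% of all 19176 genes tested did. Neither DESeq2 (5.74% of the 22434 genes with an adjusted p) nor limma-voom (0.787% of all genes) called a member. An unadjusted p below 0.05 was reached by 2 members, Atp6v0c and Npc2, against 15.6% of all genes. The same 2 were the only members whose groups did not overlap, both with NEC higher, against 22.4% of all genes without overlap in either direction and 10.8% with NEC higher. The median log2 fold change of the members was -0.10 (0.05 without control replicate 2), and that of all genes tested was 0.03. For 20 of the 34 members the 95% interval lay within a 2-fold change in either direction, as it did for 23.2% of all genes. The median standard error (SE) was 0.31 for the members and 0.42 for all genes. The other 14 intervals reach past 2-fold in at least 1 direction.

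**Figure D1:**
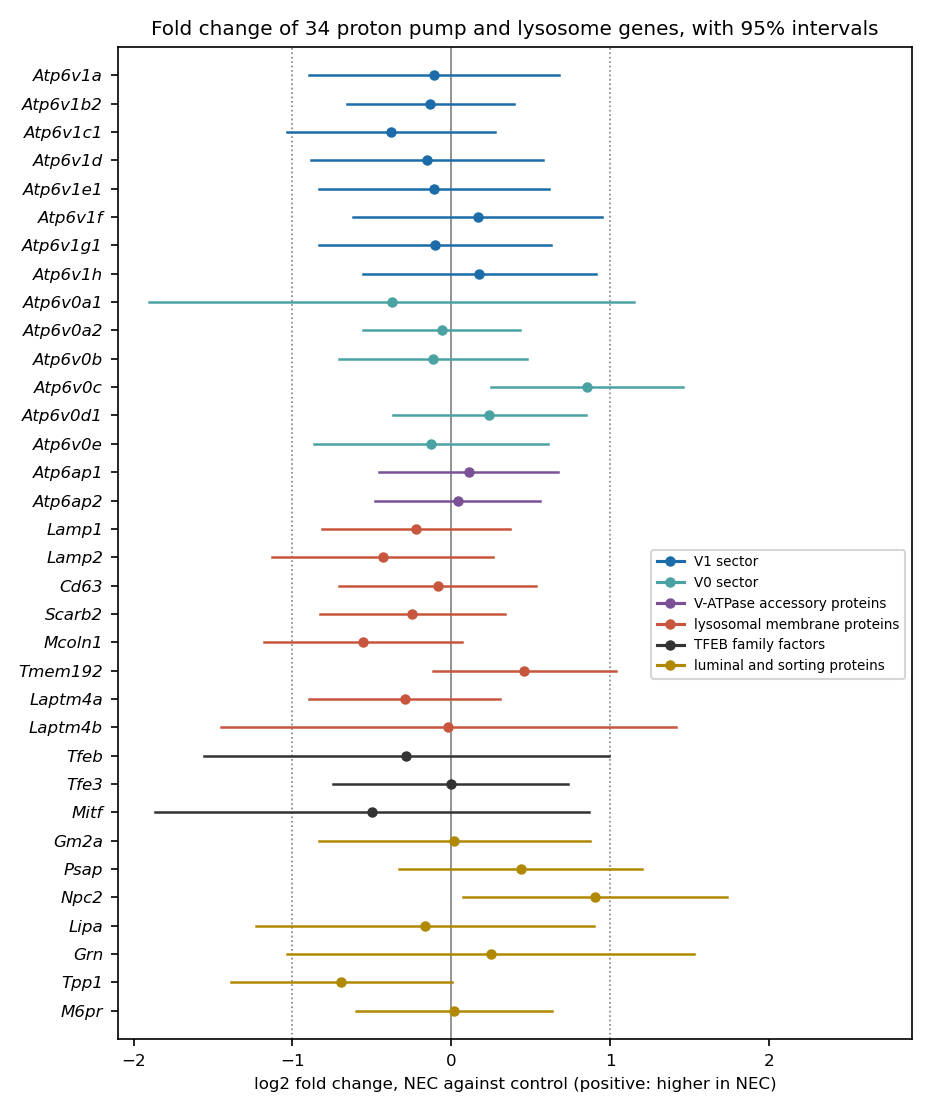
Log2 fold change of each of the 34 genes, NEC against control (x axis, positive where NEC was higher), from the edgeR fit with 3 samples per group; points are estimates, bars 95% intervals, colours roles, and dotted lines mark a 2-fold change. Most bars cross 0 and only those of Atp6v0c and Npc2 lie wholly on one side of it.

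In the V1 sector, 7 of 8 subunits had their highest level in control replicate 2 and their lowest in control replicate 3, with all NEC libraries in between. Atp6v1a, the catalytic subunit that binds ATP, had 239, 399 and 177 CPM in control replicates 1 to 3 and 297, 256 and 203 CPM in NEC replicates 1 to 3. The groups overlapped, and the log2 fold change was -0.11 (SE 0.34, 95% interval -0.90 to 0.68, edgeR adjusted p = 0.924). Atp6v1g1, a stalk subunit and the most abundant V1 gene per length of exon, had 303 ± 109 CPM per kb in control and 282 ± 30.9 in NEC (SD, n = 3). Its CPM were 373, 450.2 and 209 in control and 295, 305 and 360.3 in NEC. Control replicate 2 was again the highest library and control replicate 3 the lowest. Atp6v1c1, which links the stalks and regulates assembly, had the smallest p of the sector, at 96.3, 128 and 63.7 CPM in control and 75.9, 74.9 and 70.3 CPM in NEC. The NEC libraries lay close together, within 1.08-fold, and inside the control range. Its log2 fold change was -0.38 (SE 0.28, edgeR adjusted p = 0.579).

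The other stalk and regulatory subunits followed the same order. Log2 fold changes were -0.15 for Atp6v1d of the central rotor, -0.11 for the peripheral stalk gene Atp6v1e1, 0.17 for the rotor gene Atp6v1f and 0.18 for Atp6v1h, which restrains ATP hydrolysis in free V1. Their SEs ran from 0.31 to 0.34, and each interval lay within 2-fold. The exception in the sector was Atp6v1b2, the noncatalytic nucleotide-binding subunit, with 562, 567 and 574 CPM in control and 604, 468 and 481 CPM in NEC. Its 3 control libraries agreed within 1.02-fold, whereas those of the other 7 subunits spread between 2.01-fold and 2.41-fold. The NEC libraries spread by 1.07-fold to 1.46-fold over the 8 subunits. Among the 8291 genes tested with a mean of more than 10 CPM in both groups, the median spread was 1.52-fold in control and 1.57-fold in NEC, 22.7% had their lowest level in control replicate 3, and in 13.5% all NEC libraries lay inside the control range.

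**Figure D2:**
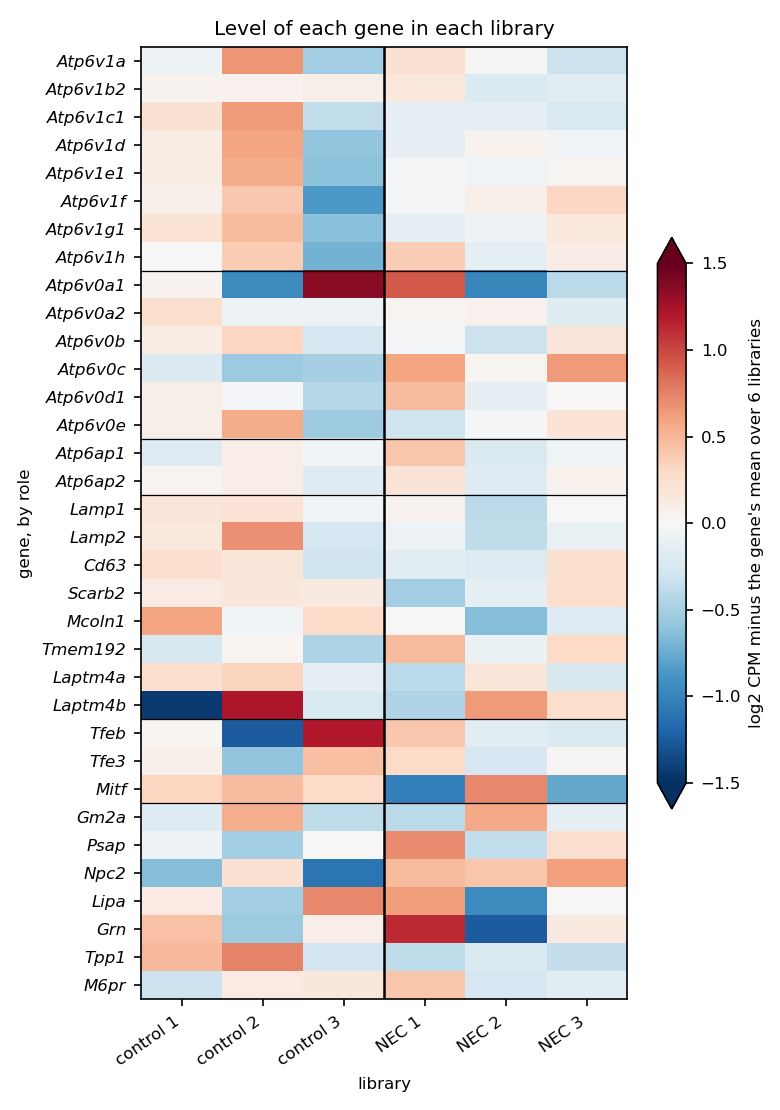
Log2 CPM of each gene in each library minus its mean over the 6 libraries (colour scale, red above and blue below the mean); rows are genes in order of role, with lines between roles, and columns are libraries. The V1 rows other than Atp6v1b2 are reddest in control replicate 2 and bluest in control replicate 3, while Tfeb and Tfe3 show the opposite order in those libraries.

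In the V0 sector the proteolipid gene stood apart. Atp6v0c encodes the c subunit of the proton-carrying ring. It had 318, 252 and 261 CPM in control and 556, 375 and 571 CPM in NEC. Every NEC library was above every control library, with means of 277 ± 35.9 and 501 ± 109 CPM (SD, n = 3). The log2 fold change was 0.85 (SE 0.26, 95% interval 0.25 to 1.46), the smallest p of all members, and the edgeR adjusted p was 0.182. Leaving out single libraries gave values from 0.75 to 1.02. A processed copy, Atp6v0c-ps2, took 63.1 to 97.8 CPM and may share reads with it. Added together they had 412, 326 and 338 CPM in control and 654, 438 and 665 CPM in NEC, which do not overlap either.

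The remaining V0 genes had no such gap. Atp6v0b, the c'' ring subunit with the highest V0 level per length in control (121 ± 23.9 CPM per kb, against 112 ± 19.1 in NEC), had 255, 293 and 196 CPM in control and 232, 189 and 267 CPM in NEC. The groups overlapped fully (log2 fold change -0.11, SE 0.26). Atp6v0d1, which couples V1 to the ring, had a log2 fold change of 0.24 (SE 0.26), and the small membrane subunit gene Atp6v0e one of -0.13 (SE 0.32). The 2 member genes of the a subunit, which forms the proton half-channels, differed in how steady they were. Atp6v0a2 kept between 65.4 and 88.0 CPM in all libraries, with a log2 fold change of -0.06 (SE 0.21). Atp6v0a1 had 59.1, 29.5 and 145 CPM in control and 108, 29.0 and 43.1 CPM in NEC. Its highest libraries were those coded AG181028, in either group, as for 12.2% of all genes, and its interval (-1.90 to 1.15) was the widest of the 34.

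Of the accessory proteins, Atp6ap1, which helps assemble V0, spread by 1.55-fold over the 6 libraries. Atp6ap2, the (pro)renin receptor, spread by 1.30-fold. Atp6ap2 had 235, 245 and 201 CPM in control and 261, 201 and 238 CPM in NEC, a log2 difference of 0.04 (SE 0.22, 95% interval -0.48 to 0.56). Atp6ap1 had 79.4, 97.6 and 88.5 CPM in control and 121, 78.0 and 87.4 CPM in NEC, a log2 difference of 0.11 (SE 0.24). The groups overlapped for both genes.

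Alternative genes exist for several V-ATPase subunits, and RNA came mainly from the broadly expressed ones. Levels here are CPM per kb of merged exons, and shares are of the family's sum on that scale. Atp6v1b2 made up at least 99.99% of the B subunit, since Atp6v1b1, known from kidney intercalated cells, had at most 0.02 CPM. Atp6v1c1, Atp6v1e1, Atp6v1g1 and Atp6v0d1 each made up at least 99.7% of their family in every library. Atp6v1e2 and Atp6v1g3 had no count in any library. Atp6v0e made up 91.8% to 96.0% of its family and Atp6v0e2 the rest. The a subunit was mixed. Tcirg1, which encodes the a3 isoform known from osteoclast and immune cell lysosomes, had the highest level, 37.1 ± 2.74 CPM per kb in control and 25.1 ± 2.55 in NEC, and made up 48.4% to 70.1% of the family. Atp6v0a1 made up 8.97% to 32.3% and Atp6v0a2 15.2% to 30.3%. Tcirg1 CPM were 185, 161.5 and 166 in control and 120, 102 and 124 in NEC. All NEC libraries were below all control libraries, as in 11.6% of all genes, and the difference did not pass the test (log2 fold change -0.56, SE 0.21, edgeR adjusted p = 0.256).

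**Figure D3:**
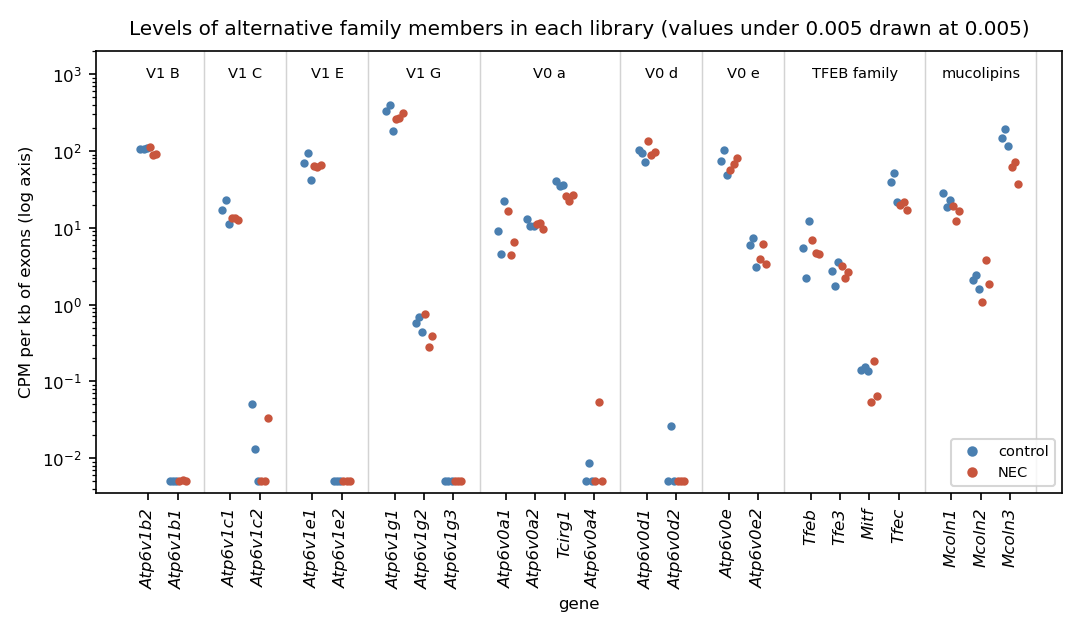
CPM per kb of merged exons (log axis) of each gene of 9 families in each of the 6 libraries, blue for control and red for NEC; values under 0.005 are drawn at 0.005. Single genes hold nearly all of the V1 B, C, E and G and V0 d families, while Tcirg1, Tfec and Mcoln3 are the highest genes of theirs.

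Lysosomal membrane proteins had mostly small negative fold changes that did not pass the test. Of 8 measured, 7 had a negative log2 fold change, and the median was -0.23. Of the 7, Laptm4b turned positive in several alternatives, among them library-size scaling and the fit without control replicate 2 (0.93). Cd63 turned positive without control replicate 1 (0.0095). Lamp1, whose product lines the lysosome, was the most abundant member per length, at 721 ± 66.6 CPM per kb in control and 617 ± 99.5 in NEC. It had 2011, 2048 and 1723 CPM in control and 1836, 1345 and 1769 CPM in NEC, a log2 difference of -0.22 (SE 0.26, 95% interval -0.82 to 0.37). Its paralog Lamp2, which also serves chaperone-mediated autophagy, had 763, 1106 and 569 CPM in control and 650, 525 and 633 CPM in NEC. The highest library was control replicate 2, and control replicate 3 lay inside the NEC range (log2 fold change -0.43, SE 0.30, edgeR adjusted p = 0.551). Its value was -0.15 without control replicate 2.

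The ion channel gene Mcoln1 (mucolipin-1, which releases lysosomal calcium) had 216, 139 and 175 CPM in control and 143, 92.2 and 125 CPM in NEC. The lowest control library was below the highest NEC library (log2 fold change -0.56, SE 0.27, 95% interval -1.18 to 0.07, edgeR adjusted p = 0.374). In the same family Mcoln3, a channel of endosomes, had more RNA per length, at 154 ± 38.6 CPM per kb in control and 56.7 ± 17.6 in NEC. Its CPM were 516, 674 and 408 in control and 215, 247 and 128 in NEC, and the groups did not overlap (log2 fold change -1.44, SE 0.33, edgeR adjusted p = 0.102). Tmem192 was the 1 membrane protein gene with a positive value, at 36.8, 44.3 and 31.5 CPM in control and 60.7, 40.7 and 53.7 CPM in NEC, a log2 difference of 0.46 (SE 0.25, edgeR adjusted p = 0.427).

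The tetraspanin gene Cd63 had a log2 fold change of -0.09 (SE 0.27), and Scarb2, the receptor that carries glucocerebrosidase to the lysosome, one of -0.25 (SE 0.25). Laptm4a, a small transporter-like protein gene, had -0.29 (SE 0.26). Its paralog Laptm4b varied most among control libraries, with 77.8, 487 and 180 CPM in control and 154, 328 and 253 CPM in NEC. This 6.26-fold range among controls left an interval of -1.45 to 1.41 for its log2 fold change.

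TFEB family factors had low to moderate RNA levels, and none passed the test. Tfeb, the master regulator of lysosome genes, had 30.7, 12.6 and 69.1 CPM in control and 39.8, 26.8 and 25.8 CPM in NEC. All NEC libraries lay inside the 5.47-fold control range (log2 fold change -0.28, SE 0.55, 95% interval -1.56 to 0.99). Tfe3 had 25.5, 16.0 and 33.1 CPM in control and 29.8, 20.3 and 24.4 CPM in NEC, with means of 24.9 ± 8.56 and 24.8 ± 4.77 CPM (SD, n = 3). Both were highest in control replicate 3 and lowest in control replicate 2, the reverse of the V1 subunits. Mitf, best known from melanocytes, mast cells and osteoclasts, had 0.86, 0.95 and 0.84 CPM in control and 0.34, 1.13 and 0.40 CPM in NEC, a log2 difference of -0.50 (SE 0.59). The melanocyte enzyme gene Tyr was at 0 in every library, and the osteoclast fusion gene Dcstamp reached at most 0.06 CPM. Pmel (1.01 to 2.26 CPM) and Mlana (0.47 to 2.34 CPM) of the melanocyte genes also had low levels in every library. So did Ocstamp (0.92 to 1.74 CPM) of the osteoclast genes. The whole marker lists held more RNA. The 7 osteoclast-type genes, which include Tcirg1, summed to 248 to 344 CPM in control and 182 to 216 CPM in NEC. For the 13 mast cell and melanocyte genes the sums were 46.9 to 60.0 CPM in control and 18.2 to 24.2 CPM in NEC.

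The fourth factor of the family, Tfec, is no member of the set but had the most RNA of the 4 per length. It had 218, 292 and 120 CPM in control and 110, 121 and 96.6 CPM in NEC, and made up 57.4% to 92.7% of the family's CPM per kb. Tfeb made up 3.96% to 32.6% and Tfe3 3.07% to 10.7%. The lowest control library of Tfec lay inside the NEC range, and the difference did not pass the test (log2 fold change -0.94, SE 0.34, edgeR adjusted p = 0.243).

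Luminal and sorting proteins had values in both directions, 5 positive and 2 negative. Npc2, which hands cholesterol from the lumen to the membrane protein NPC1, had 398, 725 and 291 CPM in control and 861, 831 and 952 CPM in NEC. Every NEC library was above every control library, and the NEC libraries lay closer together than the control libraries. The log2 fold change was 0.90 (SE 0.36, 95% interval 0.07 to 1.73), and the edgeR adjusted p was 0.284. Psap, the precursor of the saposins that activate sphingolipid breakdown, was the most abundant of the luminal genes per length (227 ± 40.7 CPM per kb in control and 306 ± 111 in NEC). Its CPM were 664, 495 and 706 in control and 1150 (1149.6), 542 and 830.2 in NEC, which overlap (log2 fold change 0.44, SE 0.33). Tpp1, a tripeptidyl peptidase, had 446, 531 and 260.3 CPM in control and 243, 276 and 247 CPM in NEC. The log2 fold change was -0.69 (SE 0.30, 95% interval -1.39 to 0.005, edgeR adjusted p = 0.323), and control replicate 3 lay among the NEC libraries.

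Grn, the precursor of the granulins, spread by 5.15-fold among the NEC libraries, with 417, 212 and 330.3 CPM in control and 669, 129.9 and 339 CPM in NEC. Lipa, the acid lipase that frees cholesterol and fatty acids, had 318, 205 and 483 CPM in control and 454, 151 and 293 CPM in NEC, and was highest in the AG181028 library of each group. Log2 fold changes were 0.25 (SE 0.55) for Grn, -0.16 (SE 0.46) for Lipa, 0.02 (SE 0.37) for the ganglioside activator gene Gm2a and 0.02 (SE 0.27) for M6pr, the cation-dependent receptor that sorts hydrolases tagged with mannose 6-phosphate.

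**Figure D4:**
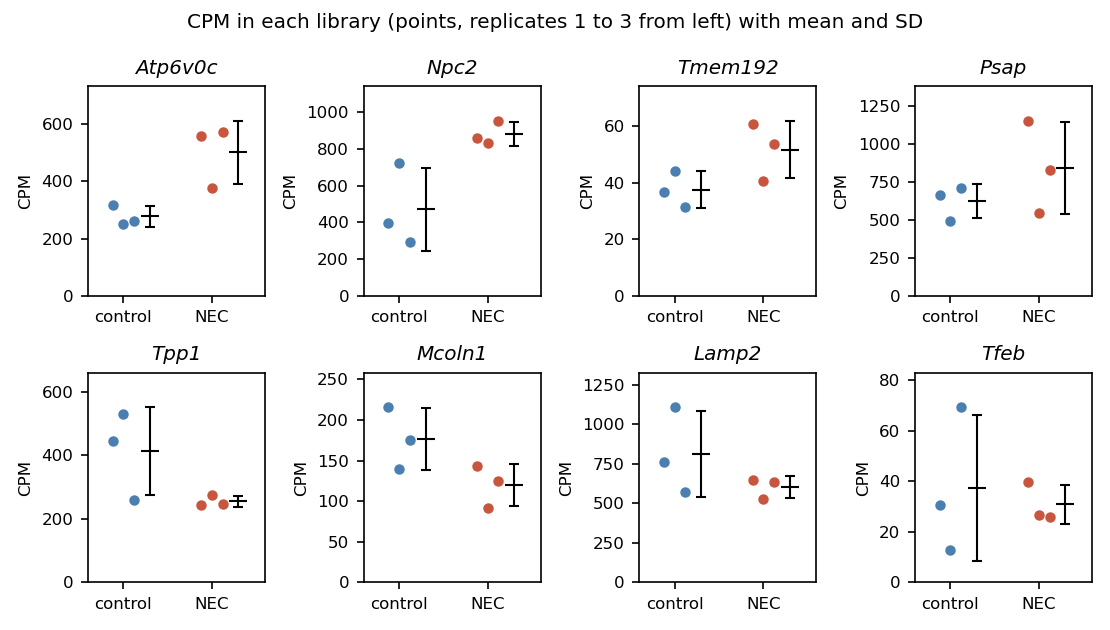
CPM of 8 members in each library (points, replicates 1 to 3 from left to right, blue for control and red for NEC) with the mean and SD of 3 libraries beside them; each y axis starts at 0. The NEC points of Atp6v0c and Npc2 lie above all control points, and those of the other genes overlap with control.

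The sign of the difference was often not the same within the 2 sample codes. The only control library coded AG181028 is control replicate 3, the lowest library for 7 of 8 V1 subunits. A difference between codes therefore cannot be told apart from the level of that single library. Nor can it be told apart from Xist. The control libraries coded AG181017 had high Xist (179 and 344 CPM), and the NEC libraries of that code did not (0.43 and 0.55 CPM). The libraries coded AG181028 had low Xist in both groups (1.17 CPM in control and 0.52 CPM in NEC). Within the 4 AG181017 libraries 26 of 34 members had a negative log2 fold change (48.5% of all genes with a value), with a median of -0.24. In the AG181028 pair, which has 1 sample per group and so no test, 23 of 34 were higher in NEC (49% of all genes), with a median difference of 0.24. All 8 V1 subunits were lower in NEC within AG181017 and higher within AG181028, as were 4 of 6 V0 subunits and both accessory proteins. The log2 difference of Atp6v1h was -0.23 within AG181017 and 1.08 within AG181028, and that of Atp6v1a was -0.50 and 0.74. Over all 34 members the 2 codes differed in sign for 23, against 33% of all genes. An interaction of NEC with the code, fitted in edgeR across all genes, passed for 0 members and 0 genes. The unadjusted value was below 0.05 for 1 member, Atp6v1h, and for 4.36% of all genes. Atp6v0c and Npc2 kept a positive difference within both codes, with 0.70 and 1.09 for Atp6v0c and 0.64 and 1.56 for Npc2.

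**Figure D5:**
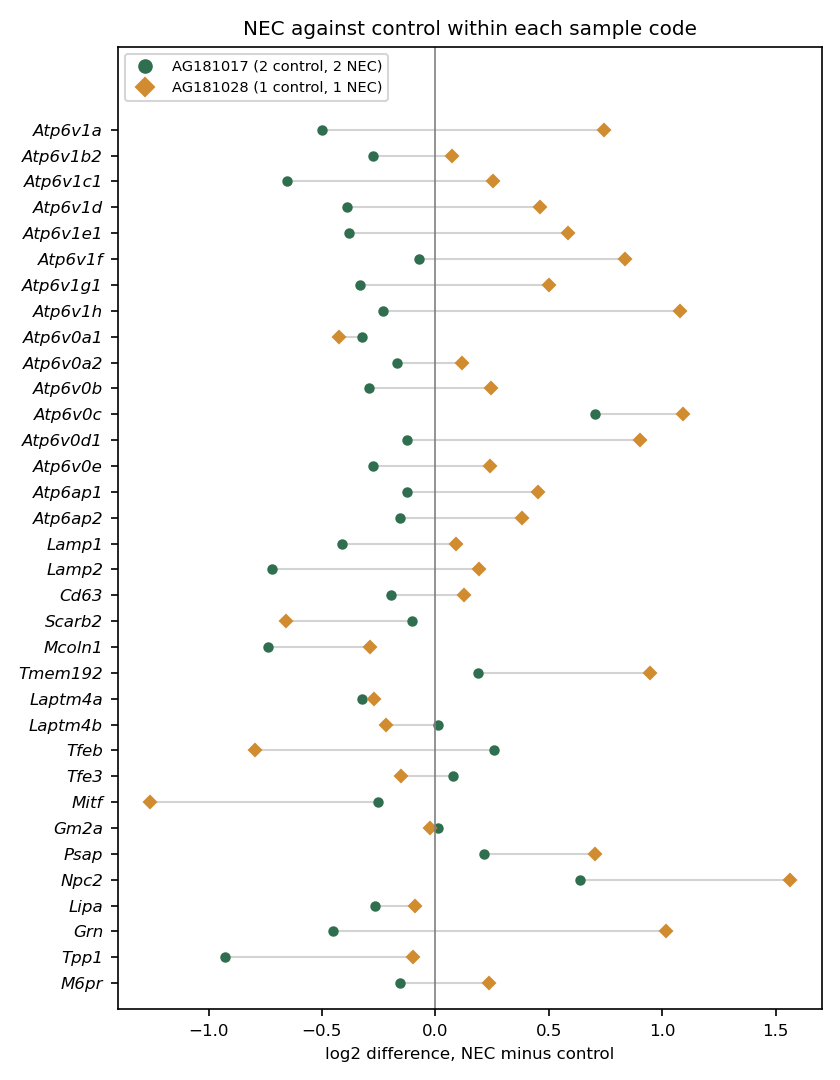
Log2 difference of each member, NEC minus control, within the 4 libraries coded AG181017 (green circles, edgeR fit) and within the 2 libraries coded AG181028 (orange diamonds, 1 sample per group). The V1 rows all lie left of 0 for AG181017 and right of 0 for AG181028, while Atp6v0c, Tmem192, Psap and Npc2 lie right of 0 for both.

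Around the members, 0 of the 201 genes tested in 9 further lists of the endosome and lysosome system passed the edgeR test, where 0.704% of all genes did. An unadjusted edgeR p below 0.05 was reached by 31 of the 201 (15.4%, against 15.6% of all genes). DESeq2 called 7 (3.48%, against 5.74% of all genes) and limma-voom 1. Pooled over the 201 genes, these shares were near or below those of all genes, but single lists differed. An unadjusted edgeR p below 0.05 was reached by 50% of the cathepsins and legumain. It was reached by 35.7% of the endocytic apparatus and 30.8% of the other V-ATPase genes. The remaining lists had 15.8% or less, down to 0% of the autophagy genes. DESeq2 called from 0% to 14.3% of a list, with the highest share for the cathepsins and legumain. These lists were chosen with earlier results known. The lysosomal cathepsins and legumain had values in both directions, with a median log2 fold change of -0.18 over 14 genes, and 4 higher and 3 lower at an unadjusted p below 0.05. Ctsl, a cysteine protease, averaged 5320 (5319.7) ± 1487 CPM in control and 1304 ± 331 CPM in NEC, a log2 difference of -2.03 (SE 0.35, edgeR adjusted p = 0.0527), Ctso had -0.76 (SE 0.22) and Ctsf 1.24 (SE 0.30). DESeq2 called Ctsl (adjusted p = 8.14e-06) and Ctsf (0.0114). Over 38 glycosidases and other hydrolases the median was -0.02, with -0.75 (SE 0.27) for Arsb and -0.62 (SE 0.26) for Acp2. Among 28 other lysosomal membrane proteins the median was -0.13. The sialic acid exporter gene Slc17a5 had -1.09 (SE 0.29), and Cd68, a macrophage glycoprotein related to Lamp1, had 1.31 (SE 0.26, edgeR adjusted p = 0.0773). Both were called by DESeq2 (adjusted p = 0.0395 and 0.00276), as was Mcoln3 (0.00766).

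The machinery that feeds and controls the lysosome was called by none of the 3 tools, apart from Rnasek, which DESeq2 called. Over 19 sorting genes the median was -0.15. Igf2r, which encodes the large mannose 6-phosphate receptor, averaged 411 ± 46.1 CPM in control against 254.5 ± 39.2 CPM in NEC, a log2 difference of -0.69 (SE 0.24). The clathrin adaptor gene Ap1m2 had -0.65 (SE 0.22) and Gnptab, which makes the mannose 6-phosphate tag, -0.58 (SE 0.23). Groups did not overlap for these 3 genes, which were named for the smallest p of their list. In the whole list this held for 5 of 19 genes, all with NEC lower, against 11.6% of all genes. Of 25 genes that control TFEB through mTORC1 and calcineurin, Rraga, a Rag GTPase, averaged 19.8 ± 0.96 CPM in control against 32.0 ± 1.71 CPM in NEC, a log2 difference of 0.69 (SE 0.21, edgeR adjusted p = 0.179), and Lamtor3, a subunit of the lysosomal Ragulator complex, had 1.07 (SE 0.36). The median of those 25 was -0.02. Over 29 autophagy genes the median was -0.12, with 0.48 (SE 0.23) for Map1lc3a, -0.38 (SE 0.22) for Pik3r4 and 0.52 (SE 0.31) for Sqstm1, and 22 intervals lay within 2-fold. For 21 genes of endosome tethering and fusion the median was -0.03, with 0.72 (SE 0.27) for Vps11, -0.61 (SE 0.28) for Rab11a and -0.39 (SE 0.25) for Rab5c. Of 13 measured other V-ATPase subunits and assembly factors the median was -0.26, with 2.09 (SE 0.66) for Rnasek and -0.89 (SE 0.30) for Ncoa7. DESeq2 called Rnasek (adjusted p = 0.0141) and edgeR did not (adjusted p = 0.198). Its groups overlapped, with 9.47 to 43.3 CPM in control and 41.9 to 183 CPM in NEC.

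Of the uptake route of the suckling enterocyte, the neonatal IgG receptor gene Fcgrt averaged 7909 ± 2696 CPM in control against 1642 ± 907 CPM in NEC, a log2 difference of -2.27 (SE 0.48, edgeR adjusted p = 0.0860), and DESeq2 called it (adjusted p = 7.82e-05). The endocytic adaptor gene Dab2 had -0.99 (SE 0.29) and the clathrin light chain gene Cltb 0.84 (SE 0.29), while the median over 14 genes was -0.16. Cubn, which encodes the receptor cubilin, stood at 365 to 615 CPM in control and 289 to 479.7 CPM in NEC.

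Cell and segment markers differed between groups beside these values, and their part in them was not tested. In bulk tissue, fewer cells of a type and less RNA per cell cannot be told apart. The summed level of 12 epithelial genes was 9694 to 11967 CPM in control and 10146 to 12934 CPM in NEC. That of 14 suckling-type enterocyte genes was 15640 (15639.6) to 20981 CPM in control and 4744 to 7205 CPM in NEC. This second sum includes Fcgrt and Ctsl, with 10160 and 5610 of the 20981 CPM in control replicate 1. Of the 14 genes, 10 had a lower and 4 a higher value in NEC, and edgeR called none. The 14 macrophage and monocyte genes summed to 352 to 441 CPM in control and 237 to 397 CPM in NEC, yet 12 of the 14 had a higher value in NEC, with a median log2 fold change of 0.62 and 1 called higher by edgeR. Sums were 6.83 to 12.4 CPM in control and 28.4 to 56.1 CPM in NEC for 12 neutrophil genes, and 248 to 344 against 182 to 216 CPM for 7 osteoclast-type genes, which include Tcirg1. Erythroid genes, 8 in the table, summed to 213 to 338 CPM in control and 476 to 2752 CPM in NEC, and 7 of the 8 had a higher value in NEC. NEC replicate 2 had the highest sums of erythroid genes (2752 CPM), of 8 fibroblast genes (2167 CPM, against 518 to 1013 CPM in the other libraries) and of 8 smooth muscle genes (3550 (3549.7) CPM, against 1164 to 2693 CPM). Without that library the log2 fold change was 1.02 for Atp6v0c and 0.93 for Npc2, and the median of the members was -0.07. Of the neutrophil genes, Ly6g and Elane were at 0 in all libraries. The 13 mast cell and melanocyte genes summed to 46.9 to 60.0 CPM in control and 18.2 to 24.2 CPM in NEC, with Fcer1a and Tyr at 0. Of the 9 tested, 6 had a lower and 3 a higher value in NEC, and edgeR called 1 lower. The 9 duodenal and jejunal genes, which include the abundant Apoa4, summed to 38287 to 114570 (114570.0) CPM in control and 31086 to 95102 CPM in NEC. Of them the iron reductase gene Cybrd1 had 28.3 to 83.8 CPM in control and 5.86 to 15.6 CPM in NEC. The 10 ileal genes in the table summed to 1131 to 1729 CPM in control and 1784 to 2804 CPM in NEC. Of these, 6 had a higher and 4 a lower value in NEC. The bile acid transporter gene Slc10a2 had at most 0.23 CPM in control and 0.47 CPM or more in each NEC library (edgeR adjusted p = 0.198). Fabp6, of the same list, had 0 to 20.9 CPM in control and 1.42 to 8.43 CPM in NEC. The 8 colonic genes summed to 2158 to 2612 CPM in control and 1614 to 1922 CPM in NEC, with Hoxb13 and Prdx6b at 0.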

How the data were processed

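Per the labels' protocols, TRIzol-extracted RNA of intestine was sequenced in paired 150 bp reads (Illumina NovaSeq). The authors deposited unnormalized whole-number counts per gene in a single table covering all 6 samples. The submitters' processing notes name the build mm10. Aligner, counter, annotation and strandedness: not given in the sources used here. Columns were matched to samples by the code in the labels. Symbols, positions and merged exon lengths came from GENCODE M21, where 54409 of 54446 identifiers matched and 37 did not. Between 4 and 40 counts, multiples of 4 occurred 2.12 times as often as other values, so counts may not be single fragments.

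Counts were tested in R 4.3.3 with edgeR 4.0.16 (filterByExpr with a minimum count of 10, TMM, robust quasi-likelihood F test, Benjamini-Hochberg over 19176 genes). The procedure was tested on simulated data. The alternatives were other scalings and filters, DESeq2 1.42.0, limma-voom (limma 3.58.1), robust=FALSE, the replicate block, the sample code as a term, AG181017 samples alone, counts divided by 4, removal of the 5 most abundant genes and each library left out. The interaction with the code was added after the data were seen. No pair of replicates differed by as little as sampling noise.

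Members, lists and tests were chosen with earlier results of these data known. Values in every library are given for the smallest p and the highest CPM per kb of each role, for Tfeb, Tfe3 and Mitf and for the 8 members with the smallest p, with other members where libraries spread widely, chosen after their values were seen. From each further list up to 3 genes with the smallest p are named, of which 1 is not reported here. Without strand information, Lamp1 reads cannot be separated from those of Grtp1 (71.4 to 121 CPM), an overlapping gene on the opposite strand, and Atp6v1e1, Atp6v1h, Atp6v0a2, Atp6v0b, Tmem192 and Grn overlap genes of at most 5.74 CPM.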

Additional observations from a re-analysis of the deposited data

How the results depend on the processing

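No member was called in the 19 alternatives run, where between 0 (without control replicate 1) and 1288 (DESeq2) of all genes were. The median log2 fold change of the members was -0.15 to 0.05 with 1 library left out, highest without control replicate 2, and -0.24 to -0.04 in the other 13 alternatives (lowest within AG181017 alone). Of the 442 member fits in those 13, 420 kept their sign. The log2 fold changes that changed sign, all uncalled, were, with RLE scaling Tfe3 0.0090; with library-size scaling Atp6v0a2 0.021, Laptm4b 0.057, Tfe3 0.052; by DESeq2 Tfe3 0.013; by limma-voom Laptm4b 0.30, Tfe3 0.027; with the replicate block Laptm4b 0.31, Tfeb 0.035, Tfe3 0.043; with the sample code as a term Tfe3 0.020, M6pr -0.0062; within the AG181017 samples alone Atp6v1f -0.074, Atp6v1h -0.23, Atp6v0d1 -0.13, Atp6ap1 -0.12, Atp6ap2 -0.16, Laptm4b 0.012, Tfeb 0.26, Tfe3 0.079, Grn -0.45, M6pr -0.15. With 1 library left out 14 members kept their sign in each fit and 20 did not, with ranges of Atp6v1a -0.35 to 0.27, Atp6v1d -0.42 to 0.16, Atp6v1e1 -0.37 to 0.19, Atp6v1f -0.13 to 0.45, Atp6v1g1 -0.37 to 0.14, Atp6v1h -0.074 to 0.44, Atp6v0a1 -1.11 to 0.45, Atp6v0a2 -0.12 to 0.053, Atp6v0b -0.27 to 0.022, Atp6v0e -0.38 to 0.16, Atp6ap1 -0.10 to 0.23, Atp6ap2 -0.051 to 0.13, Cd63 -0.25 to 0.0095, Laptm4b -0.45 to 0.93, Tfeb -0.70 to 0.51, Tfe3 -0.24 to 0.25, Gm2a -0.33 to 0.35, Lipa -0.60 to 0.19, Grn -0.45 to 0.66, M6pr -0.22 to 0.14. Atp6v0c and Npc2 stayed positive in each alternative, and Npc2 reached an unadjusted p below 0.05 in 1 of the 6 fits with a library left out. Of 513 fits of the named genes outside the set, 0 changed sign and 13 passed the threshold, 7 of them by DESeq2 and the others for Ctsl. Whether equal replicate numbers pair the samples was not settled. Deviations from the group mean correlated at -0.14, 0.27 and -0.01 for numbers 1 to 3, against 0.36 for the libraries coded AG181028. Such deviations sum to 0 within each group of 3, so the correlations depend on one another and cannot exclude a pairing. With the replicate block 54 of all genes were called, against 135, and 0 members. The precision is limited by 3 samples per group.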

Other observations

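Cd63-ps, a processed copy of the tetraspanin gene Cd63, had 6056 to 7705 counts in 5 of the 6 libraries and 18 counts in NEC replicate 3. On the CPM scale this was 68.3 to 104 against 0.26, while Cd63 itself had 1026 CPM in NEC replicate 3, the highest value of the 6 libraries. Summed, the gene and its copy had 1122, 1088 and 777 CPM in control and 853, 828 and 1026 CPM in NEC. The other named copies of members, Atp6v0c-ps1 and M6pr-ps, had at most 0.04 and 0.44 CPM. These genes were singled out after their values were seen, and the cause was not tested.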
